A study of Mus musculus with 48 samples.

Results

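The genes described here are 43 mouse genes of DNA replication and mitosis, picked by symbol because their transcripts accumulate in dividing cells, and 42 of them were measured among the 19938 genes of the series. A gene was read from the annotated transcript cluster with its symbol, or from the cluster with the highest mean over all arrays where there were several, and Ccnb1 was not analysed here. The samples were 48 primary mouse mammary tumors, with 4 independent tumors from each of 12 transplantable models. Suspended cells of a line were placed in the fourth mammary fat pad of immune competent mice of the same strain, and tumors were taken at 0.5 to 1.0 cm diameter and freed of surrounding and dead tissue. RNA was read on 1 Affymetrix Mouse Gene 1.0 ST array per tumor as log2 signal.

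The engineered models were M6, Met-1, HRM-1, MVT-1 and 6DT1 in FVB/N mice and R3T in 129Sv mice. The models of spontaneous origin were D2A1, EMT-6, 4T1, TS/A-E1 and F311 in Balb/c mice and E0771 in C57Bl/6 mice. No tumor was treated, no normal gland was on the arrays, and the labels give neither the transgenes of the engineered models nor the age of the hosts. Each model is 1 cell line, so a difference between models is a difference between lines grown in mice, and every tumor also holds host cells. In such bulk RNA, fewer dividing cells and less of a transcript in each dividing cell cannot be told apart.

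A cell that enters the cycle first switches on the genes that license and copy its DNA. The Mcm helicase subunits, their loaders Cdc6 and Cdt1, the clamp Pcna and the enzymes that supply deoxynucleotides belong to this wave, which E2F transcription factors drive. A later wave, driven through B-Myb (Mybl2) and Foxm1, makes the cyclins, kinases, kinetochore proteins and motors of mitosis. Mki67 encodes the Ki-67 antigen, which coats mitotic chromosomes and is the marker pathologists use to count dividing cells in breast tumors. Top2a encodes the topoisomerase that untangles sister chromosomes and is the target of anthracyclines.

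Many promoters of the members held letters that these factors are known to read, and those of E2f1, Tyms, Mad2l1, Mybl2 and Nusap1 held none of the patterns searched. The search covered 250 bases before to 50 bases after the annotated start, in RefSeq sequence of build GRCm38.p6, on both strands, and 35 of the 42 members had such a window, as did 27025 genes in all. The patterns searched were CCAAT (read by NF-Y), TTTGAA and TTTAAA (forms of the cell cycle homology region read by the B-Myb complex) and the E2F letters. The last were counted where a window held TTCCCGC, or the related form TTGGCGC, or else TTCGCGC, or finally the form TTGCCGC. The CCAAT box was in 68.6% of the members' windows and in 41.1% of all genes' windows. TTTGAA was in 15 of 21 mitosis members and 1 of 14 replication members, against 20.2% of all genes. TTTAAA was in 7 of 21 mitosis members and 3 of 14 replication members, against 14.9% of all genes. The E2F letters were in 9 of 14 replication members and 2 of 21 mitosis members, against 10.9% of all genes. So the replication and mitosis members differed in the letters they carried, and a match is a description of sequence, not a measured binding site. CCAAT and TTTAAA were not particular to the members. In a list of 9 genes linked to arrest, read below, CCAAT was in 6 of 8 windows and TTTAAA in 3 of 8. TTTGAA and the E2F letters were in 1 of 8 each.

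The 2 replication members and 3 mitosis members with the most matches are printed, as the 250 bases before the start from 5′ to 3′, with every matched letter in capitals. Matches that overlap were counted separately, and an E2F pattern and the reverse complement of another E2F pattern share letters in the Mcm windows.
Mcm5 (chr8:75109259-75109508, plus strand): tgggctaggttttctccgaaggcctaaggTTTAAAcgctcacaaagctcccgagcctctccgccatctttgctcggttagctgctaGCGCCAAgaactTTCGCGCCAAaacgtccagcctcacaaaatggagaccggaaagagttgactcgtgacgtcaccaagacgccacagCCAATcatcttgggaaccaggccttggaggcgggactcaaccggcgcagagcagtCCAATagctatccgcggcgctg
Mcm6 (chr1:128359706-128359955, minus strand): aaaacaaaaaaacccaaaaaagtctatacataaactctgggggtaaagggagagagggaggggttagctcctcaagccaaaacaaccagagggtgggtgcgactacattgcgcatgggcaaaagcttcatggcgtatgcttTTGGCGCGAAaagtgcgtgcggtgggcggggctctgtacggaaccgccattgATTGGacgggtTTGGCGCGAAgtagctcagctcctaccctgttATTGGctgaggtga
Cdk1 (chr10:69352913-69353162, minus strand): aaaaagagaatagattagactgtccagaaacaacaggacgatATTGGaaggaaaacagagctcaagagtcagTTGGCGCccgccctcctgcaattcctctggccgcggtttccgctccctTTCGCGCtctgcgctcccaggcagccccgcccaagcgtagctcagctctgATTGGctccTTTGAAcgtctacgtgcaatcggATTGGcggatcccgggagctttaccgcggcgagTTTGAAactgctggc
Mki67 (chr7:135716380-135716629, minus strand): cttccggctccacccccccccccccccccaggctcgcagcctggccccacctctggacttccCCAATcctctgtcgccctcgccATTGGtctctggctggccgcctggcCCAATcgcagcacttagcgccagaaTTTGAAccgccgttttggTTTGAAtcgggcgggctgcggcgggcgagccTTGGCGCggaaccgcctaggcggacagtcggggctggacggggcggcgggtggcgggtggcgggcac
Top2a (chr11:99024190-99024439, minus strand): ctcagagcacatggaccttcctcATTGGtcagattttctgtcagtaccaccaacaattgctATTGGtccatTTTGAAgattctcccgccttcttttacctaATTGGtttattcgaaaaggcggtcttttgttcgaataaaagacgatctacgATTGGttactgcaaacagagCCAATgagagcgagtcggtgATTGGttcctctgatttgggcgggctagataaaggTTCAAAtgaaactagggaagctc
The Mcm5 window held 3 E2F matches, 2 CCAAT boxes and 1 TTTAAA, and the Mcm6 window 4 E2F matches and 2 CCAAT boxes. Top2a held 6 CCAAT boxes and 2 TTTGAA matches with no E2F letters. Cdk1 and Mki67, the only mitosis members with E2F letters, held both kinds, with 2 and 1 E2F matches beside 2 TTTGAA matches each.

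Before the results, 3 tumors stood apart on the arrays as a whole. F311 replicate 1 and Met-1 replicate 2 were closest to one another (r = 0.984, taken over genes and so not over independent replicates), and 6DT1 replicate 4 correlated best with MVT-1 replicate 4 (r = 0.992). Scores of host tissue also differed among tumors of 1 model. The score of 7 adipocyte genes (mean log2 signal relative to the mean of 48 tumors) was 3.42 and 3.74 in 6DT1 replicates 2 and 3, and -1.46 and -1.59 in replicates 1 and 4. For 5 genes of B cells the score reached 4.66 (F311 replicate 1) and 4.65 (Met-1 replicate 2). In all, 9 tumors of 7 models had an adipocyte or B cell score more than 2.5 above the median tumor, and counts without these 9 are given below where they moved. Array medians ran between 6.76 and 6.99, and each model's precision is limited by its 4 arrays.

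All 42 members differed among the 12 models (limma F-test, Benjamini-Hochberg adjusted over all genes, adjusted p from 1.11e-14 for Gins2 to 0.00772 for Plk1). The same test called 70.4% of all genes, so passing it does not set the members apart. The span of the members was wider than usual. The gap between a member's highest and lowest model mean had a median of 1.53 on the log2 scale, against 0.68 over all genes, and the share of its variance that lay between models had a median of 70.5%, against 62.4%. M6 had the highest mean for 33 of the 42 members and 6DT1 the lowest for 34. Without the 9 tumors rich in host genes M6 was highest for 31, while 6DT1, with 2 tumors left, was lowest for 6, F311 for 17, MVT-1 for 6 and Met-1 for 5.

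Taken as a mean over the 42 members, relative to their 48-tumor means, the models fell in the order M6, D2A1, E0771, EMT-6, 4T1, R3T, HRM-1, TS/A-E1, MVT-1, Met-1, F311 and 6DT1. M6 tumors had values of 0.83, 0.76, 0.71 and 0.82, with a mean of 0.78 ± 0.06 (SD, n = 4). D2A1, the next model, had -0.01, 0.49, 0.54 and 0.60. At the other end, F311 had -1.06, -0.21, -0.08 and -0.47, and 6DT1 had -0.29, -0.98, -1.41 and 0.00. M6 was thus the only model whose 4 tumors lay above all tumors of the model next to it, and every other pair of neighbours in the order overlapped. The distance of M6 over 6DT1 came to 1.45, which is a 2.73-fold difference in mean signal. Without the 9 tumors rich in host genes the lowest model was F311 in place of 6DT1, and the distance of M6 over it was 1.05 (2.07-fold).

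**Figure D1:**
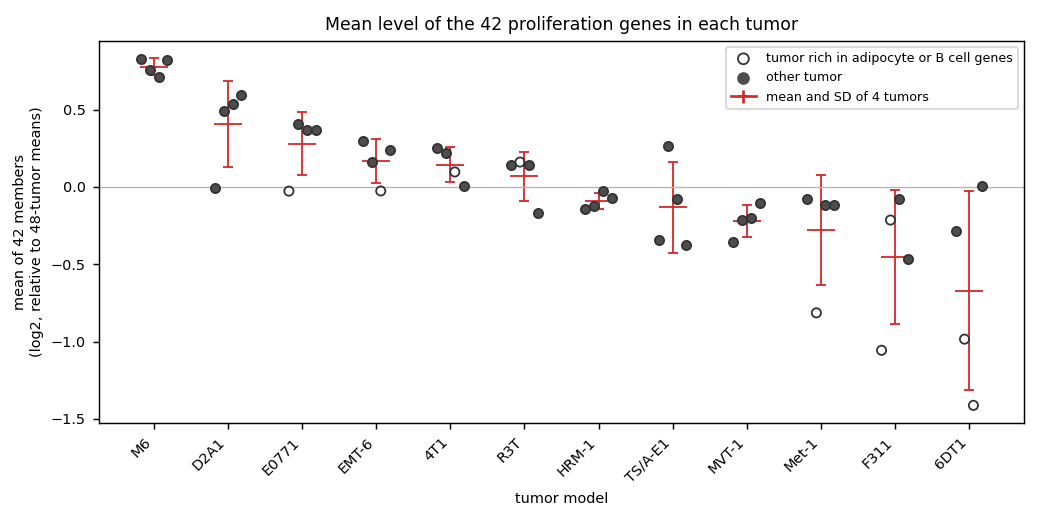
Average of the 42 members in log2 units, each relative to its own 48-tumor mean (vertical axis), in each tumor, by model, with the mean and SD of 4 tumors in red. The 4 M6 tumors lie between 0.71 and 0.83 with no other tumor above 0.60, while the open symbols (tumors with high adipocyte or B cell scores) include the 4 lowest tumors, at -0.81 to -1.41.

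Each model was then set against the mean of the other 11 model means, gene by gene, to show which members carried its place. The 12 comparisons share tumors and are not independent. In M6, 40 of 42 members rose and none fell, with a median difference of 0.80, where 18.9% of all genes were called higher and 17.7% lower. D2A1 had 21 members higher and none lower (median 0.45), against 13.4% and 14.1% of all genes. E0771 had 15 members higher and 2 lower (median 0.34), against 19.8% and 17.8%. In 6DT1, 39 members fell and none rose (median -0.72), against 19.9% of all genes lower and 15.6% higher. F311 had 24 members lower and none higher (median -0.51), against 9.76% and 7.79%. Met-1 had 16 members lower and 2 higher (median -0.35), against 17.2% and 14.6%.

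The other 6 models lay near the mean. 4T1 and EMT-6 each had 4 members higher and none lower, where the shares of all genes were 11.8% higher and 12.8% lower in 4T1 and 11.3% and 12.6% in EMT-6. R3T also had 4 higher and none lower (13.2% and 10% of all genes). MVT-1 had 5 lower and none higher (8.97% lower and 11.6% higher of all genes), and HRM-1 had 1 in each direction (14.8% higher and 10.1% lower). TS/A-E1 had none by limma, with 6 of 42 members at an unadjusted p under 0.05 (9.62% of all genes higher and 6.57% lower). Without the 9 tumors rich in host genes, members called were 15 in 6DT1, all lower, 28 in E0771 (26 higher), 31 in MVT-1, all lower, 18 in TS/A-E1, all lower, and 18 in HRM-1 (16 lower), against 41 in M6 and 21 in F311. In R3T, Mcm2, Mcm4, Mcm5, Mcm6, Cdc6 and Cdc20 were then called lower, and Gins2, Rrm2, Tyms and E2f1 higher. Rrm2, Mybl2 and Mad2l1 were then lower in 4T1, and Mcm6 and Cdc6 in EMT-6. The other members called in 4T1 and EMT-6 were higher. The largest moves were in MVT-1 and in 6DT1, which had 2 tumors left, and M6 stayed the highest model. The share of all genes called is not given for this fit, here or below. Its counts therefore cannot show whether the members moved more than other genes did.

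**Figure D2:**
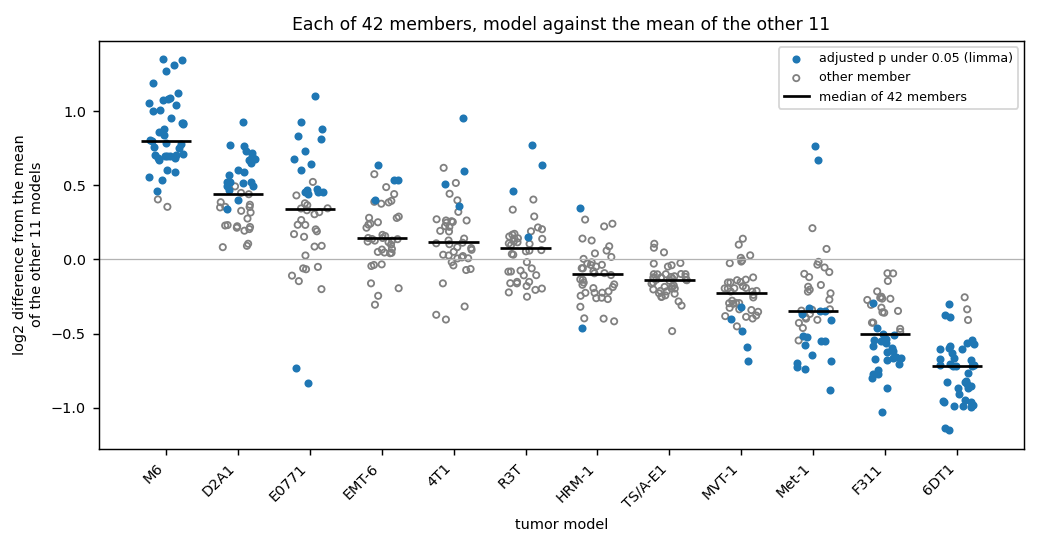
Log2 difference of each of the 42 members between a model and the mean of the other 11 models (vertical axis), with models ordered by their mean over members, filled points for adjusted p under 0.05 (limma) and a black line at the median. Nearly the whole set is filled and positive in M6 and filled and negative in 6DT1, while the points in TS/A-E1 are all open.

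The genes of replication licensing and initiation separated M6 most widely. All 10 (Mcm2 to Mcm7, Cdc6, Cdt1, Gins2 and Pcna) rose in M6, by 0.55 for Pcna to 1.35 for Cdt1. In 6DT1 9 of 10 fell, with Cdc6 at -0.26 not called, and in F311 9 of 10 fell. Without the tumors rich in host genes 10 of 10 rose in M6, 2 of 10 fell in 6DT1 and 10 of 10 fell in F311. Gins2, a subunit of the GINS complex of the replicative helicase, had the largest F of the members. It was 10.46, 10.31, 10.33 and 10.14 in M6 tumors, against a mean of 9.23 over the other 11 models (difference 1.08 ± 0.09 SE, adjusted p = 4.38e-13). R3T came next with 10.13, 9.97, 10.19 and 9.83 (difference 0.77 ± 0.09 SE, adjusted p = 4.74e-09), and no tumor of the remaining 10 models reached the lowest R3T value. Mcm5, a subunit of the Mcm helicase, was 11.68, 11.54, 11.56 and 11.47 in M6 tumors, against a mean of 10.22 over the other models (difference 1.35 ± 0.11 SE, adjusted p = 1.25e-12). The largest difference in M6 was that of Cdt1, which loads the Mcm ring onto DNA, at 1.35 ± 0.15 SE (adjusted p = 1.58e-09), with 11.41, 11.18, 10.90 and 11.05 in M6 tumors and 9.79 over the other models. For 14 of the 42 members every M6 tumor lay above each of the other 44 tumors, which held for 2.40% of all genes. Of these 14, 9 were among the 16 replication members and 5 among the 26 mitosis members.

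The 4 genes of nucleotide supply (Rrm1, Rrm2, Tyms and Tk1) all rose in M6, and all but Rrm2 fell in 6DT1 (2 of 4 without the tumors rich in host genes). Tyms, the thymidylate synthase that fluorouracil inhibits, was 10.85, 10.73, 10.90 and 10.83 in M6 tumors, against 9.82 over the other models (difference 1.01 ± 0.15 SE, adjusted p = 3.94e-07). Rrm2, the regulated subunit of ribonucleotide reductase, gave the largest difference of any member in F311. It was 9.13, 9.71, 9.97 and 9.01 there, against 10.49 over the other models (difference -1.03 ± 0.19 SE, adjusted p = 9.69e-05). R3T, in contrast, had 11.07, 11.17, 11.12 and 10.56 of Rrm2, a level close to that of M6 (11.04 ± 0.09 SD) and D2A1 (11.01 ± 0.39 SD, n = 4 each).

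All 3 transcription factors rose in M6 and fell in 6DT1 (2 of 3 fell without the tumors rich in host genes). Mybl2, however, had its highest mean in E0771, at 9.90, 10.45, 10.49 and 10.35, against 9.20 over the other models (difference 1.10 ± 0.16 SE, adjusted p = 7.01e-07), the largest rise of any member in that model. M6 had 10.20, 10.32, 10.01 and 10.29, so the ranges of E0771 and M6 overlapped. Foxm1 was 10.90, 10.98, 10.83 and 10.93 in M6 tumors, against 10.03 over the other models (difference 0.88 ± 0.18 SE, adjusted p = 0.000156). E2f1 rose by 0.67 in M6 (adjusted p = 4.29e-05) and fell by 0.54 in 6DT1 (adjusted p = 0.00111), where without the tumors rich in host genes it fell by 0.24 (adjusted p = 0.0194).

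Cdk1, Ccna2 and Ccnb2, the engine of mitotic entry, and the checkpoint and exit genes Bub1, Bub1b, Mad2l1, Ttk, Cdc20 and Chek1 all rose in M6 and all fell in 6DT1. Without the tumors rich in host genes, 1 of 3 and 2 of 6 fell in 6DT1. Cdk1 was 11.55, 11.35, 11.50 and 11.58 in M6 tumors, against 10.96 over the other models (difference 0.54 ± 0.16 SE, adjusted p = 0.00717), so its lead was smaller than that of the replication genes. Ccna2, the cyclin of S phase and early mitosis, was highest in D2A1, with 11.89, 12.24, 12.25 and 12.24, against 11.38 over the other models (difference 0.78 ± 0.15 SE, adjusted p = 0.000131). Bub1, a kinase of the spindle checkpoint, showed both the largest rise in D2A1 and the largest drop in 6DT1. It was 10.34, 10.68, 10.77 and 10.95 in D2A1 tumors, against 9.76 over the other models (difference 0.92 ± 0.23 SE, adjusted p = 0.00163). In 6DT1 tumors it was 9.24, 8.37, 7.66 and 9.86, against 9.93 (difference -1.15 ± 0.23 SE, adjusted p = 0.000147), so 1 of the 4 tumors was near the other models and 2 were far below. Without the tumors rich in host genes the difference was -0.47 ± 0.16 SE (adjusted p = 0.0203). Chek1, the kinase that halts the cycle when replication stalls, had the widest range of model means of all members, with M6 at 10.06 ± 0.14 and 6DT1 at 7.81 ± 0.59 (SD, n = 4 each), a 4.74-fold distance. It gave the largest difference in 4T1 too, with 9.87, 9.75, 9.67 and 9.63 there, against 8.77 over the other models (difference 0.96 ± 0.17 SE, adjusted p = 3.13e-05).

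The mitotic kinases with Birc5, the kinetochore genes and the motors carry out the division itself. In 6DT1, 4 of 4 genes of the kinase group, 2 of 3 kinetochore genes and 7 of 7 spindle and cytokinesis genes fell, and in M6 the counts that rose were 2 of 4, 3 of 3 and 7 of 7. Without the tumors rich in host genes the counts in 6DT1 were 0 of 4, 1 of 3 and 5 of 7, and those in M6 3 of 4, 3 of 3 and 7 of 7. Aurkb, the kinase of the chromosomal passenger complex, was 11.74, 11.57, 11.35 and 11.56 in M6 tumors, against 10.79 over the other models (difference 0.76 ± 0.15 SE, adjusted p = 5.51e-05). Aurka, the kinase of the spindle poles, and Plk1, which starts centrosome maturation, were the 2 members not called in M6. Aurka was highest in E0771 and D2A1, with a rounded mean of 10.254 in both, and its highest single tumor was D2A1 replicate 4 (10.51). In E0771 it was 9.83, 10.39, 10.37 and 10.43, against 9.58 over the other models (difference 0.68 ± 0.19 SE, adjusted p = 0.00462). Cenpa, the histone variant that marks centromeres, was 10.76, 10.81, 10.97 and 11.03 in M6 tumors, against 10.11 over the other models (difference 0.78 ± 0.16 SE, adjusted p = 8.39e-05). The spindle and cytokinesis genes Kif11, Kif20a, Kif23, Kif2c, Tpx2, Nusap1 and Prc1 rose in M6 by 0.60 for Tpx2 to 1.09 for Kif20a, and of the kinetochore genes Cenpa, Cenpe and Cenpf only Cenpf was not called in 6DT1. Kif20a, a motor of cytokinesis, was the strongest member in EMT-6, with 10.63, 10.47, 10.19 and 10.56, against 9.83 over the other models (difference 0.64 ± 0.19 SE, adjusted p = 0.0101).

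Kif23, the motor that builds the midbody, was lowest beside its fellow members in MVT-1. It was 9.07, 9.19, 9.37 and 9.32 in MVT-1 tumors, against 9.92 over the other models (difference -0.69 ± 0.16 SE, adjusted p = 0.00208). Cenpf, a kinetochore protein, had the largest drop in Met-1, with 8.54, 7.66, 8.54 and 8.39, against 9.16 over the other models (difference -0.88 ± 0.21 SE, adjusted p = 0.000969). Met-1 replicate 2 was the lowest of these 4 tumors, and the other 3 Met-1 tumors also lay below the mean of the other models. Nusap1, which bundles spindle microtubules, was 9.40, 8.70, 8.61 and 9.67 in 6DT1 tumors, against 10.08 over the other models (difference -0.99 ± 0.14 SE, adjusted p = 1.13e-06), and all 4 tumors lay below that mean. Without the tumors rich in host genes the difference was -0.59 ± 0.14 SE (adjusted p = 0.00114).

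**Figure D3:**
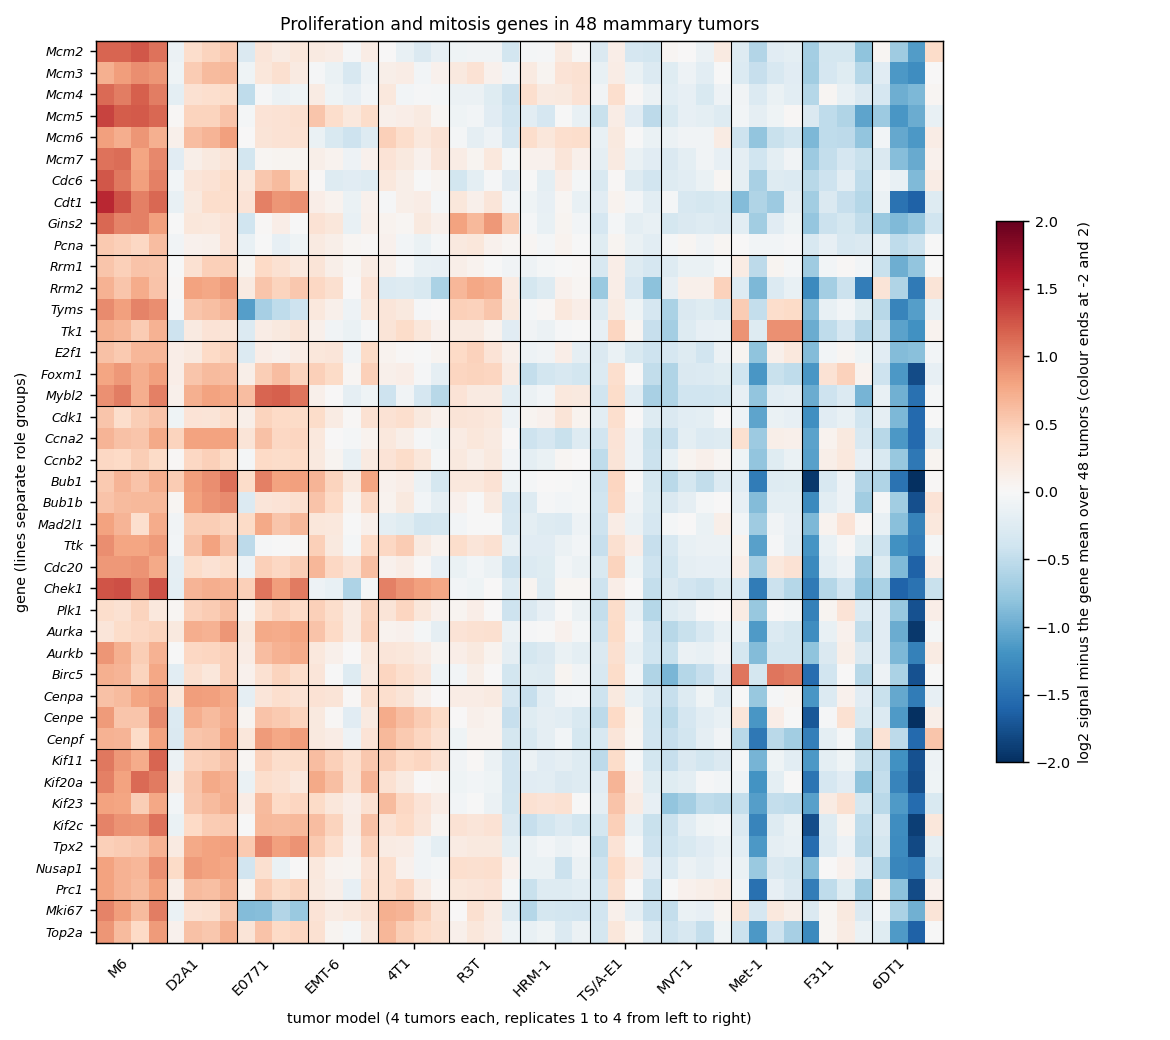
Log2 signal of each of the 42 members (rows, in role groups) minus its mean over 48 tumors, in every tumor (columns, models ordered by their mean over members), with red above and blue below the gene mean. M6 is red from top to bottom, single pale or blue columns cross most rows in D2A1, E0771, R3T, Met-1, F311 and 6DT1, and isolated cells break the pattern for Mki67 and Tyms in E0771 and Tk1 and Birc5 in Met-1.

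The marker Mki67 did not keep the order of the other members. Its mean correlation with the other 41 members over 48 tumors was 0.56, the lowest of any member, where pairs of members had a median correlation of 0.80 (861 pairs, given as a description, over the same arrays). M6 tumors had 11.75, 11.60, 11.39 and 11.78 of Mki67, against 10.68 over the other models (difference 0.95 ± 0.13 SE, adjusted p = 1.58e-07), and 4T1 came next with 11.47, 11.44, 11.26 and 11.05 (difference 0.60 ± 0.13 SE, adjusted p = 0.000608). In HRM-1 Mki67 was the only member called lower, with 10.18, 10.41, 10.38 and 10.37, against 10.80 (difference -0.46 ± 0.13 SE, adjusted p = 0.00774). E0771, which only M6 and D2A1 exceeded in the mean over members, had the lowest Mki67 of all models. The 4 E0771 tumors had 9.89, 9.90, 10.17 and 10.02, against 10.83 over the other models (difference -0.83 ± 0.13 SE, adjusted p = 2.13e-06). Top2a, in contrast, was 11.09, 11.40, 11.23 and 11.26 in E0771, above the other models' mean of 10.79 (difference 0.46 ± 0.18 SE, adjusted p = 0.038). These 2 proliferation markers placed E0771 on opposite sides.

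Each array was also shifted by its own mean over the 42 members, a setting chosen after the values were seen. The members named here were picked from these same arrays and count toward that mean. Their departures and adjusted p (limma) are thus a description, not a test. In E0771, Mki67 lay 1.14 below the other members' place (-1.14 ± 0.09 SE, adjusted p = 8.53e-14) and Tyms -1.04 ± 0.08 SE (adjusted p = 1.53e-13), while Mybl2 lay 0.80 ± 0.08 SE above it (adjusted p = 1.66e-10). Tyms was 8.80, 9.24, 9.40 and 9.50 in E0771 tumors, against 9.97 over the other models. In Met-1, Birc5 lay 1.08 ± 0.10 SE above the other members (adjusted p = 8.58e-11) and Tk1 0.98 ± 0.08 SE (adjusted p = 1.88e-12). Birc5 encodes survivin, an inhibitor of cell death that also serves the passenger complex, and Tk1 is thymidine kinase. In 4T1, Chek1 lay 0.80 ± 0.09 SE above the others (adjusted p = 4.71e-09). Birc5 and Tk1 were also the only 2 members called higher in Met-1 without the shift.

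**Figure D4:**
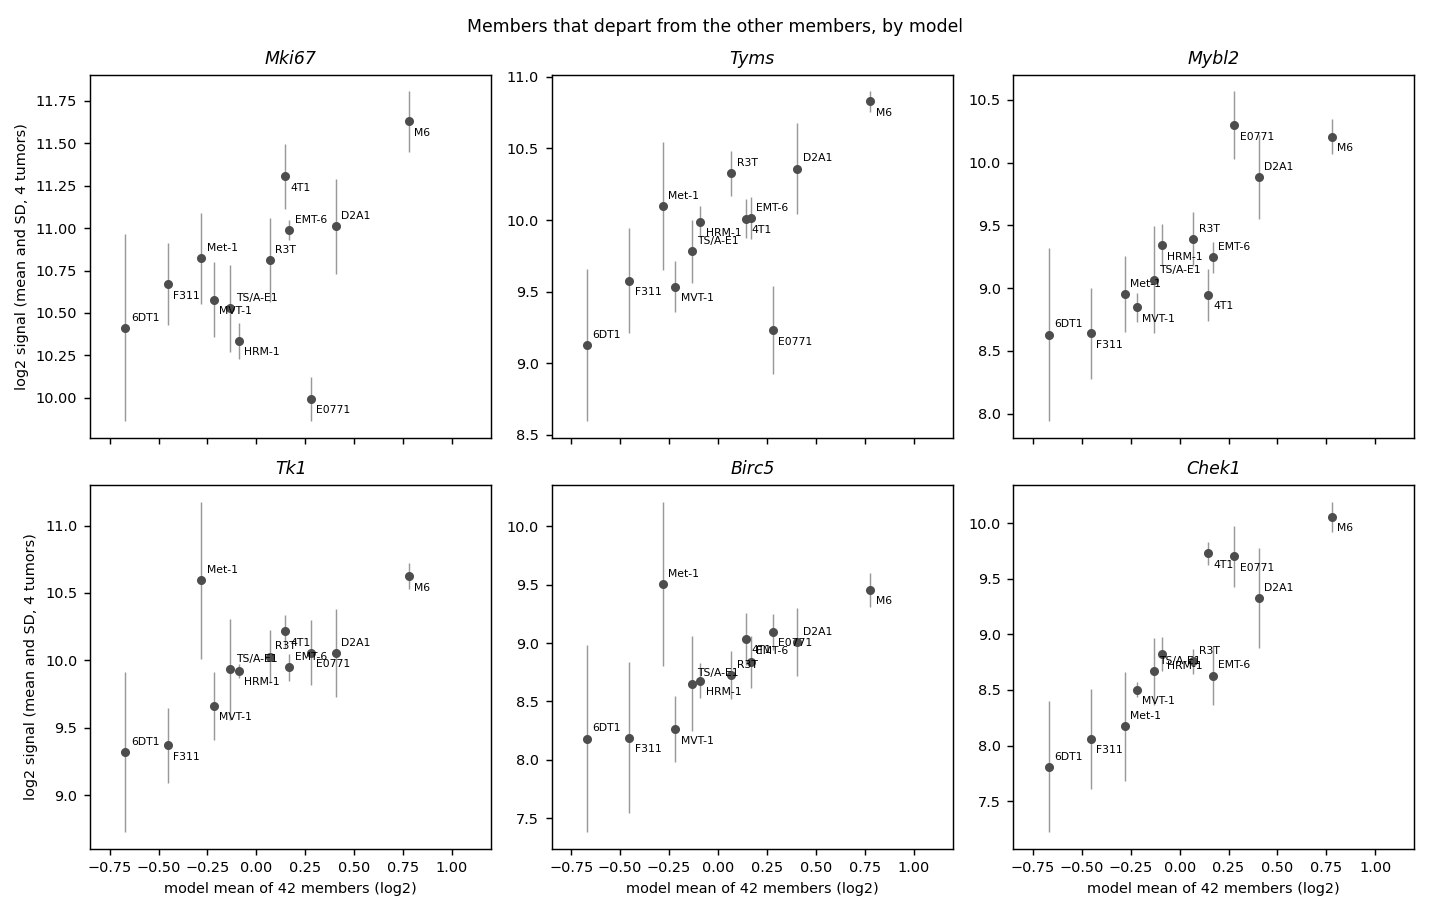
Model mean and SD (4 tumors) of log2 signal for 6 members chosen after their values were seen (vertical axes) against the model's mean over all 42 members (horizontal axis). E0771 lies far below the trend for Mki67 and Tyms and above it for Mybl2, Met-1 lies above it for Tk1 and Birc5, and 4T1 and E0771 lie above it for Chek1.

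The high values of Birc5 and Tk1 in Met-1 were in the same 3 tumors. Birc5 was 9.88, 8.45, 9.87 and 9.83 in the 4 Met-1 tumors, against 8.74 over the other models (difference 0.77 ± 0.21 SE, adjusted p = 0.00454), and Tk1 was 10.87, 9.72, 10.89 and 10.89, against 9.92 (difference 0.67 ± 0.16 SE, adjusted p = 0.00117). Replicate 2, the tumor rich in B cell and adipocyte genes, was the low one for both. The 2 genes lie close together on chromosome 11 with only Afmid measured between them. Of the 20 measured genes nearest to Tk1, 10 on each side and Birc5 among them, 10 were higher in Met-1 and 2 lower, where 14.6% of all genes were higher. Tmc6 (difference 1.35, adjusted p = 5.19e-17), Tnrc6c (1.21, adjusted p = 1.89e-15) and Usp36 (1.14, adjusted p = 9.52e-13) were the highest of them, and Afmid was at 0.01 (adjusted p = 0.95). These neighbours were looked at after the values of Birc5 and Tk1 were seen, and a cause was not tested. Around Gins2, the member that rose most in R3T, 10 of 20 neighbours on chromosome 8 were higher in R3T and none was lower, where 13.2% of all genes were higher. The same count was made for some other members with large departures, picked after their values were seen. Members with departures of similar size, such as Chek1 in E0771 and Cenpf in Met-1, were not counted. Around Chek1 in 4T1 7 of 20 were higher and none lower, and around Mybl2 in E0771 4 were higher and 1 lower. Around Mki67 in E0771 1 was higher and 5 lower, around Tyms in E0771 none was higher and 4 were lower, and around Rrm2 in F311 1 was higher and 8 lower. Among all genes 11.8% were called higher in 4T1, 19.8% higher and 17.8% lower in E0771, and 9.76% lower in F311. The neighbours of Chek1 called higher in 4T1 included Pate2 and Pate6, whose mean signals there were low (5.36 and 4.62).

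Replication and mitosis members could also be read separately. Their difference (replication mean minus mitosis mean) was 0.20 ± 0.07 in M6 and 0.19 ± 0.06 in HRM-1 (SD, n = 4 each), the models with the highest means. It was -0.21 ± 0.05 in EMT-6, -0.20 ± 0.02 in E0771 and -0.17 ± 0.04 in D2A1, and all tumors of the first pair lay above all tumors of these 3 models. F311 tumors were spread, with 0.46, -0.20, -0.35 and -0.15, and replicate 3 was the lowest of the 48 tumors. The highest single tumors were 6DT1 replicate 3 (0.57), F311 replicate 1 (0.46) and Met-1 replicate 2 (0.40), all rich in host genes. The difference between replication and mitosis means was not tested, since it rests on the chosen members.

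Within models, 1 tumor was often low across the whole set. D2A1 replicate 1 was the lowest of its model for 42 of 42 members, R3T replicate 4 and E0771 replicate 1 for 41 each, and Met-1 replicate 2 for 40. EMT-6 replicate 3 was the lowest for 39, F311 replicate 1 for 38, 6DT1 replicate 3 and MVT-1 replicate 1 for 34 each, and 4T1 replicate 4 for 29. In 6DT1 both fat-rich tumors, replicates 2 and 3, were below both others for all 42 members. In R3T the fat-rich tumor, replicate 2 (adipocyte score 2.37), was the lowest for none. D2A1 replicate 1 and R3T replicate 4 had adipocyte scores of -0.20 and -1.08 and B cell scores of -0.58 and -0.56, so these 2 low tumors were not rich in host genes of either kind. The same held for MVT-1 replicate 1 and 4T1 replicate 4, with adipocyte scores of -1.43 and -1.51 and B cell scores of -0.64 and -0.67. The skeletal muscle score of D2A1 replicate 1 was 1.78, the highest of its model.

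The slope of each gene on the adipocyte score was fitted within models. For 36 of 42 members the slope was below 0 and for none above it, where 26% of all genes had a called slope below 0 and 14.3% above. The median slope was -0.10 log2 units per unit of score, against -0.01 over all genes. Called slopes were found for 24 of 26 mitosis members and 12 of 16 replication members, and Kif2c had the steepest (-0.17 ± 0.04 SE, adjusted p = 0.00094). Without the 4 tumors of 6DT1, 1 of 42 members was called and the median slope was -0.05. On the B cell score 23 members had a called slope below 0 and none above (15.1% of all genes below 0), with a median of -0.10. That count was 1 without F311 replicate 1, 1 without Met-1 replicate 2, 13 without F311 replicate 3, and 1 with both scores in the fit. Without the 4 tumors of 6DT1 it was 31. Mki67, Mcm5, Pcna, Rrm2, Cdc6 and Mybl2 were the 6 members with no called slope on the adipocyte score.

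**Figure D5:**
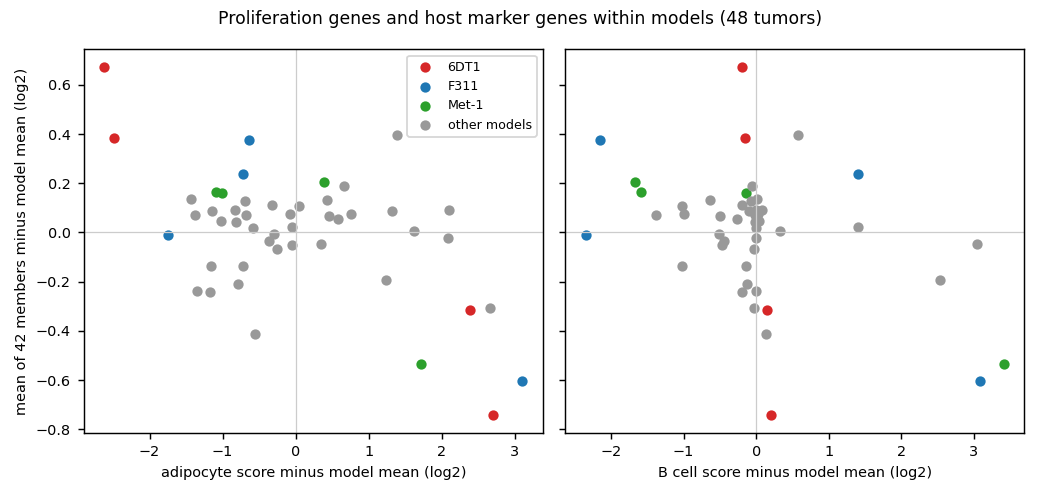
Mean of the 42 members in each of the 48 tumors minus its model mean (vertical axes) against the adipocyte score (left) and the B cell score (right) minus their model means, in log2 units. The 4 6DT1 tumors span the left panel from upper left to lower right, and F311 replicate 1 and Met-1 replicate 2 lie at the lower right of both panels.

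Markers of several other cell types also differed among the models, and their part in the result was not tested. In M6, 7 of 7 macrophage genes and 7 of 8 T and NK cell genes were lower, 6 of 8 luminal epithelial genes and 5 of 6 skeletal muscle genes were higher, and none of 7 adipocyte or 5 B cell genes was called. The M6 tumors were uneven in muscle genes, with scores of 0.36, -0.19, 3.67 and 1.75. By the F-test among models, 0 of 6 skeletal muscle genes and 1 of 7 adipocyte genes passed. The mean log2 level of the macrophage list was 9.60 to 10.65 in M6 tumors, and that of the T and NK cell list 6.07 to 6.24. D2A1 and E0771, the next models, each had 7 of 8 luminal genes lower, and in E0771 4 of 8 T and NK cell genes were higher where in D2A1 5 of 8 were lower. In 6DT1, 2 of 7 adipocyte genes and 4 of 8 fibroblast genes were higher, and 3 of 8 luminal and 3 of 7 macrophage genes lower. In F311, 5 of 8 T and NK cell genes were higher. In Met-1, 4 of 5 milk protein genes, 4 of 8 T and NK cell genes and 4 of 8 luminal genes were higher. The models labelled as mammary tumors differed widely in luminal genes, whose list had a mean log2 level of 7.39 in the lowest E0771 tumor and 11.56 in the highest M6 tumor.

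Other genes of the same pathways were read from separate lists. Like the members, these lists were chosen with earlier results of these data known, so they are not an independent check. Of 28 other DNA replication genes, all differed among models, 28 rose in M6, 20 fell in 6DT1 (12 without the tumors rich in host genes) and 21 fell in F311. Timeless, a replication fork protein, was 8.65 ± 0.16 in M6 and 7.32 ± 0.21 in 6DT1, Rfc4, a subunit of the clamp loader, 11.47 ± 0.19 and 9.30 ± 0.38, and Gins4 10.94 ± 0.12 and 9.75 ± 0.15 (SD, n = 4 each). Gins3 was 9.30 ± 0.07 in M6 and lowest in HRM-1, at 7.55 ± 0.15. Of 40 other mitosis genes, 35 rose in M6, 34 fell in 6DT1 (12 without those tumors), 21 rose in D2A1 and 25 rose in E0771. Ckap2, a spindle protein, was 9.86 ± 0.07 in M6 and 7.69 ± 0.50 in 6DT1, and the condensin subunits Smc4 and Ncapd2 and the lamin Lmnb1 had F-test adjusted p of 2.21e-11, 3.37e-10 and 2.13e-09.

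A list of 9 genes linked to arrest was read beside them. In M6, 3 were higher and 1 lower, and in 6DT1 2 were higher and 2 lower. Cdkn1b, which encodes the inhibitor p27, was 11.27 ± 0.12 in M6, its highest model, and 10.27 ± 0.13 in 6DT1, its lowest (SD, n = 4 each), the same order as the proliferation genes. Btg1, an antiproliferative gene, was highest in Met-1 (12.07 ± 0.18) and lowest in D2A1 (11.24 ± 0.14). Ccng2, a cyclin linked to arrest, was highest in D2A1 (9.91 ± 0.24) and lowest in E0771 (8.06 ± 0.12), models that stood next to each other by the proliferation genes. Cdkn1c was 7.55 ± 0.36 in 6DT1 and 6.86 ± 0.08 in E0771. On the adipocyte score 5 of the 9 had a called slope above 0 and 1 below.

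No member was called between host strains or tumor origins. With the model as the replicate, 5 FVB/N models were set against 5 Balb/c models, and 0 of 42 members were called by limma, 0 at an unadjusted p under 0.05 and 0 with all tumors and the model as a random block. The median difference was -0.14 on the log2 scale (0.01 over all genes), and 0.191% of all genes were called. Mki67 was 10.76 in FVB/N models and 10.90 in Balb/c models (difference -0.14 ± 0.25 SE). For 6 engineered against 6 spontaneous models, 0 of 42 members were called, 0 at an unadjusted p under 0.05, and 0 with the random block (1 unadjusted), with a median of -0.15 (0.01 over all genes) and 0.0401% of all genes called. FVB/N held both the highest model, M6, and the lowest, 6DT1. The comparisons share most models and overlap in what they contrast.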

How the data were processed

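RNA from 48 tumors had been hybridized to Mouse Gene 1.0 ST arrays, 1 per tumor. The deposited values are log2 signals per transcript cluster, summarized by the authors with a normalization that is not given in the sources used here. No depth exists for arrays, so precision rests on 4 tumors per model. Of 35556 clusters, 21789 carried 1 gene symbol, 1621 several and 12146 none; only those with 1 symbol were used, taking for each gene the cluster with the highest mean (19938 genes).

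Models were taken from the labels, which call the tumors independent and give no batch. Models were compared in limma 3.58.1 (R 4.3.3) by an F-test over 12 models and by contrasts of each model minus the mean of the other 11, with Benjamini-Hochberg adjustment over all genes and a threshold of 0.05. Strain and origin were compared on model means. Slopes on host scores were fitted within models. Each fit was tested on simulated data in which 200 genes had known changes. Named genes were the 2 members with the largest F in each role, the member with the largest called difference in each model, Mki67 and Top2a, and up to 4 genes by F in each other pathway list; departures and chromosomal neighbours were chosen after values were seen. The members and lists were chosen with earlier results of these data known. Replicate numbers did not pair tumors. The alternatives were quantile normalization, centring, a filter that left out the dimmest 30% of genes, host scores as covariates, a replicate block, 39 tumors without those rich in host genes, and leaving out each tumor. Promoter windows came from RefSeq. Host-rich tumors were those with a score over 2.5 above the median.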

Additional observations from a re-analysis of the deposited data

Results flagged for a closer look

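Single tumors lay far from the other 3 of their model in 12 of 60 sets of 4 values, by a gap larger than Dixon's criterion for 4 values allows, where chance gives about 1 in 20. For the mean over all 42 members these were D2A1 replicate 1 (-0.01, nearest tumor 0.49), E0771 replicate 1 (-0.03, nearest 0.37), Met-1 replicate 2 (-0.81, nearest -0.12) and R3T replicate 4 (-0.17, nearest 0.14). The same 4 tumors stood apart on the mitosis members, at 0.04 in D2A1 replicate 1 (nearest 0.57), 0.04 in E0771 replicate 1 (nearest 0.44), -0.97 in Met-1 replicate 2 (nearest -0.15) and -0.22 in R3T replicate 4 (nearest 0.12). On the replication members the tumors were E0771 replicate 1 (-0.14, nearest 0.24), Met-1 replicate 2 (-0.56, nearest -0.12), R3T replicate 4 (-0.09, nearest 0.15) and M6 replicate 1, which lay above its model (0.96, nearest 0.89). The 3 sets overlap, since the first is made of the other two. The adipocyte score was 2.93 in E0771 replicate 1 and 2.03 in Met-1 replicate 2, and -0.20 in D2A1 replicate 1 and -1.08 in R3T replicate 4. What set these tumors apart was not tested.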

How the results depend on the processing

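Apart from centring on the members, all 42 members passed the F-test under every alternative run. The largest called difference of each model that had one kept its sign. Counts of members called in a model moved by over 1.5 times as follows. Quantile normalization gave 2 in TS/A-E1. Centring on the median gave 2 in 4T1, 1 in HRM-1, 2 in MVT-1 and 2 in R3T. Host scores as covariates gave 8 in 4T1, 17 in EMT-6, 6 in HRM-1, 18 in MVT-1 and 5 in TS/A-E1. Without host-rich tumors the counts were 11 in 4T1, 15 in 6DT1, 28 in E0771, 15 in EMT-6, 18 in HRM-1, 31 in MVT-1, 10 in R3T and 18 in TS/A-E1. Centring on the members, added after seeing the data, gave 11 in 4T1, 16 in 6DT1, 10 in EMT-6, 9 in HRM-1, 17 in M6, 8 in MVT-1, 7 in R3T and 2 in TS/A-E1. That setting places a member beside the other members, so directions could change. Cdk1 and Ccnb2, called higher in M6 without it, were called lower with it (-0.314 and -0.387). So were Pcna, Rrm1, Tpx2 and Mad2l1 in M6 (-0.296, -0.262, -0.245 and -0.15). Mcm2, Mki67, Pcna and E2f1, called lower in 6DT1 without it, were called higher with it (0.344, 0.355, 0.429 and 0.191). Slopes on the B cell score gave 1 with both scores in the fit, and those on the adipocyte score 1 without 6DT1. Replicate numbers did not pair tumors (median correlation of deviations 0.033 for the same number, lowest -0.655), and with the replicate block the F-test called 42 and the slopes 37 (adipocyte) and 20 (B cell).

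Leaving out each tumor in turn gave 39 to 40 in M6, 27 to 42 in 6DT1, 12 to 21 in E0771 and 25 to 39 for the adipocyte slope. The range was 10 to 31 in D2A1 (12 without D2A1 replicate 3 and 10 without replicate 4), 13 to 28 in F311 (13 without F311 replicate 1), 9 to 27 in Met-1 (9 without Met-1 replicate 2) and 1 to 28 for the B cell slope (1 without F311 replicate 1 or Met-1 replicate 2, and 13 without F311 replicate 3). It was 2 to 9 in 4T1 (2 without 4T1 replicate 1 or 2, 9 without 6DT1 replicate 3 or 4, and 7 without F311 replicate 1 or 3), 0 to 7 in EMT-6 (0 without EMT-6 replicate 1, 2 without replicate 4, and 7 without 6DT1 replicate 3), 2 to 7 in MVT-1 (2 or 3 without any of its own tumors) and 1 to 5 in R3T (2 without R3T replicate 1, and 1 without replicate 2 or 3). It was 0 to 4 in HRM-1 (0 without HRM-1 replicate 1, 1 without any other of its tumors, and 4 without F311 replicate 1 or 6DT1 replicate 3 or 4) and 0 to 4 in TS/A-E1 (4 without TS/A-E1 replicate 2, 2 without 6DT1 replicate 2 or 3, and 1 without 6DT1 replicate 4, F311 replicate 1 or 4, or Met-1 replicate 2). Of the named differences, Kif20a in EMT-6 lost its call without EMT-6 replicate 1 (adjusted p = 0.0582) and Mki67 in HRM-1 without HRM-1 replicate 1 (adjusted p = 0.0558).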
